A study of Mus musculus with 6 samples.

Results

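The abundance of 10 transcripts of the Notch pathway was followed in the E13.5 mouse cortex with and without deletion of the RNA-binding protein Ybx1. The genes were taken by symbol from a list that holds 3 receptors (Notch1, Notch2 and Notch3), 3 ligands (Dll1, Dll3 and Jag1), the fringe enzyme Lfng and 3 effectors (Hes1, Hes5 and Hey1). All 10 were found among the 17348 genes of the table, and all 10 passed the filter on low counts, which kept 13340 genes. None of the 10 differed between genotypes by more than the spread between libraries, and their values by library, their order of abundance and the size of change that the data still allow are given here. RNA from the cortex of embryos at E13.5 had been sequenced in 3 libraries labelled WT and 3 labelled cKO. The cKO embryos carried floxed Ybx1 alleles and the Nestin-Cre transgene, in which the Nestin promoter drives Cre in neural progenitors, so that their progeny carry the deletion too. The WT embryos were control littermates, and the study elsewhere used floxed embryos without Cre as controls. Sequencing was described as 3 batches, without saying which libraries each held. Whether embryos were pooled for a library is not given in the sources used here, so p-values measure the spread between these libraries. Library totals lay between 15907491 and 16282929 estimated counts, and each of the 10 genes had between 211 and 5697 counts in a library.

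Notch is a receptor that is cut when a ligand on a neighbouring cell pulls on it. The freed intracellular domain enters the nucleus, joins the DNA-binding protein Rbpj and switches on the repressors of the Hes and Hey families, which in turn hold down proneural genes and the Delta-like ligands. In the embryonic cortex this exchange keeps radial glia in the progenitor state, while cells that are about to become neurons or intermediate progenitors express ligand and lose the signal.

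The letters bound by Rbpj are shown for the members whose promoters hold them, since Rbpj is the factor through which the receptors act on their targets. Windows of 300 bases, from 250 before to 50 after an annotated start, were taken from RefSeq (GRCm38.p6) and were present for 8 of the 10 genes (all but Hes1 and Hey1). The letters TGGGAA, or TTCCCA for the same motif on the other strand, were searched, and 25.6% of all 32851 windows held them. Among the members they occurred in Hes5 and Lfng, at 2 places each. The longer form GTGGGAA, which includes the shorter one and was also searched on both strands, was present in 6.38% of all windows, and it was found at both places in Hes5 and at the second in Lfng. Each stretch is written 5′ to 3′ on the strand of the gene, which for both genes is the plus strand, and capitals mark the motif. Positions count from the start that the window uses. For Lfng this is the start of the gene as given later, while for Hes5 it lies inside the gene as given later, so that both stretches of Hes5 fall within that longer span.
Hes5, motif from -226, chr4:154960685-154960714: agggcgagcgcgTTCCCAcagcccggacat
Hes5, motif from -82, chr4:154960829-154960858: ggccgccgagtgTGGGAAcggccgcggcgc
Lfng, motif from -135, chr5:140607194-140607223: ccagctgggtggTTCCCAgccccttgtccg
Lfng, motif from -108, chr5:140607221-140607250: ccgtatcccacgTGGGAAggagagatctcc
A match describes these letters only and is not evidence of binding. The windows of Notch1, Notch2, Notch3, Dll1, Dll3 and Jag1 did not contain the letters.

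The deleted gene was checked first. Ybx1 (Entrez gene 22608) stood at 1021 CPM (counts relative to the library total, scaled by TMM factors) in WT replicate 1, 528 in WT replicate 2 and 1220 in WT replicate 3. Its cKO values were 83.1, 117 and 147 CPM, in the order of replicates that all later values follow. No overlap was seen between genotypes, but the library labelled WT replicate 2 lay between the other WT libraries and cKO. The log2 fold change was -2.998 (SE 0.33), with an adjusted p of 0.128 by edgeR's quasi-likelihood test. Another library, cKO replicate 3, carried RNA of skin and connective tissue. Its 5 epidermal markers summed to 245 CPM against at most 1.12 in any other library, with 3 of the 5 at 0 counts in at least 1 library. Its 6 connective tissue markers summed to 518 CPM against at most 16.7, with 1 of the 6 at 0 counts in at least 1 library. The labelled tissue was borne out by its markers, since 8 radial glia genes (summed to between 1807 and 2675 CPM), 4 intermediate progenitor genes (929 to 1211) and 7 cortical neuron genes (4600 to 5793) were present in all 6 libraries. Of 11 ventral forebrain and interneuron markers, 9 were tested and 6 had an unadjusted p under 0.05 (3.57% of all genes did). The sum of the 11 was 71.4 to 126 CPM in WT and 147 to 156 in cKO. The part of these differences between libraries in the values below was not tested, except that the comparison is repeated without the 2 libraries that stand apart. In bulk tissue, fewer cells of a type and less RNA per cell cannot be told apart.

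To compare abundance between genes, the deposited TPM values, which are transcript abundances scaled for length and to a common sum, were ordered by their WT mean. Dll1 was the most abundant of the 10 at 91.3 ± 15.8 TPM (SD, n = 3). It was followed by Hey1 at 87.1 ± 5.08, Hes1 at 77.2 ± 6.47, Hes5 at 76.4 ± 4.43 and Notch1 at 72.1 ± 7.01 TPM. Each of these 5 overlapped its neighbour among them in library values, so the order of neighbours is not resolved. The lowest WT values of Dll1 (81.07 TPM) and Hey1 (81.25 TPM) lay above the highest of Hes5 (79.38 TPM) and Notch1 (78.06 TPM). A second tier held Notch2 at 43.7 ± 3.09, Lfng at 39.4 ± 3.93, Notch3 at 32.8 ± 2.52 and Dll3 at 27.8 ± 10.8 TPM. The steps from Notch1 to Notch2, from Lfng to Notch3 and from Dll3 to Jag1 were free of overlap. Jag1 was the least abundant at 6.08 ± 0.38 TPM. In cKO the order was the same except that Hey1 (88.8 ± 3.97 TPM) came before Dll1 (86.2 ± 12.02 TPM), a pair that overlapped in both genotypes. By this measure Dll1 was the most abundant of the 3 ligands, Notch1 of the 3 receptors and Hey1 of the 3 effectors, though Hey1 overlapped Hes1.

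**Figure D1:**
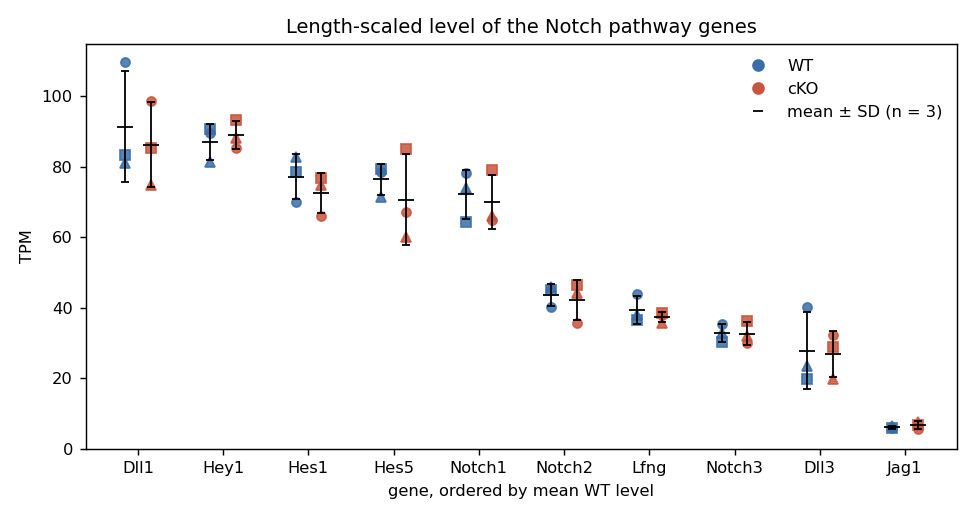
Level in TPM (length-scaled) of the 10 Notch pathway genes in 3 WT (blue) and 3 cKO (red) libraries, ordered by WT mean, with symbols for replicates 1 (circle), 2 (square) and 3 (triangle) and bars for the mean ± SD. Dll1, Hey1, Hes1, Hes5 and Notch1 form an upper tier with WT means of 72.1 to 91.3 TPM, and Jag1 lies lowest at 6.08 TPM.

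Of the receptors, Notch1 (chromosome 2, 26457902 to 26503822, minus strand) is the main one in radial glia. It gave 325, 293 and 329 CPM in WT and 274, 357 and 288 CPM in cKO. The cKO libraries held both the lowest and the highest value, and the WT values lay between them. The mean was 316 ± 19.9 CPM in WT and 306 ± 44.7 CPM in cKO (SD, n = 3), and the log2 fold change was -0.04 (SE 0.11). Notch2 (chromosome 3, 98013538 to 98150367, plus strand), a second receptor of neural progenitors, gave 186, 227 and 228 CPM in WT and 167, 233 and 214 CPM in cKO. Replicate 1 was the lowest library in each genotype. Its log2 fold change was -0.06 (SE 0.14). Notch3 (chromosome 17, 32120820 to 32166896, minus strand), which is also known from the mural cells of blood vessels, gave 124, 116 and 124 CPM in WT and 106, 139 and 117 CPM in cKO, a log2 fold change of -0.01 (SE 0.10). As for Notch1, the extremes were cKO replicates 1 and 2. Each receptor turned to a positive value without cKO replicate 1 (0.04 for Notch1, 0.08 for Notch2 and 0.08 for Notch3), and Notch3 also without any of WT replicate 1, WT replicate 3 and cKO replicate 3. The receptors had 95% intervals of 0.812 to 1.16 times the WT level for Notch1, 0.773 to 1.19 for Notch2 and 0.848 to 1.17 for Notch3. GENCODE M21 lists transcripts on the opposite strand within Notch1, Notch3, Dll1 and Hes5, and whether counting used strand is not given in the sources used here, so reads from such partners cannot be told apart for these 4 genes. On the same strand it lists Gm42819 and Gm42820 within Notch2 and Mir6996 within Notch1, whose reads cannot be told apart either.

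Among the ligands, Dll1 (chromosome 17, 15367354 to 15376932, minus strand) is the ligand that newly committed cells present to radial glia. It gave 163, 135 and 128 CPM in WT and 148, 137 and 117 CPM in cKO. The genotypes overlapped, and replicate 1 was the highest library in each. The mean was 142 ± 18.2 CPM in WT and 134 ± 15.9 CPM in cKO (SD, n = 3), and the log2 fold change was -0.08 (SE 0.12). Dll3 (chromosome 7, 28293555 to 28301785, minus strand) is a divergent Delta-like protein that does not activate receptors on other cells. It was the most variable member, at 34.2, 18.4 and 21.5 CPM in WT and 27.9, 26.8 and 17.6 CPM in cKO, so that WT libraries alone spanned 1.86-fold. Dll1 and Dll3 turned to positive values without WT replicate 1 (0.03 and 0.27) and without cKO replicate 3 (0.007 and 0.15). For Dll3 the log2 fold change of -0.04 had an SE of 0.26, and the 95% interval ran from 0.648 to 1.47 times the WT level. Jag1 (chromosome 2, 137081451 to 137116520, minus strand), a ligand of the Serrate type, gave 14.2, 15.2 and 16.6 CPM in WT and 13.2, 17.8 and 19.4 CPM in cKO. It was the member with the highest fold change, 0.13 on the log2 scale (SE 0.15). Its highest value was in cKO replicate 3, the library with epidermal and connective tissue RNA, and without that library the log2 fold change was 0.01. Lfng (chromosome 5, 140607341 to 140615545, plus strand) extends a sugar on Notch receptors and so tunes their response to Delta and Jagged ligands. It had the smallest SE of the 10 genes, at 39.8, 36.1 and 36.7 CPM in WT and 34.9, 38.0 and 34.0 CPM in cKO, a log2 fold change of -0.07 (SE 0.08) with a 95% interval of 0.831 to 1.09 times the WT level.

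The effectors are the transcripts through which a change of Notch signalling would be read. Hes1 (chromosome 16, 30065357 to 30067796, plus strand), a repressor of proneural genes, gave 36.8, 45.4 and 46.9 CPM in WT and 35.3, 44.1 and 41.4 CPM in cKO. Replicate 1 was the lowest library in each genotype. The mean was 43.0 ± 5.44 CPM in WT and 40.3 ± 4.50 CPM in cKO (SD, n = 3), and the log2 fold change was -0.10 (SE 0.12). Hes5 (chromosome 4, 154960626 to 154962372, plus strand), whose promoter letters are shown above and which is often read as a measure of Notch activity in radial glia, gave 36.4, 40.1 and 35.5 CPM in WT. In cKO it gave 32.1, 43.0 and 29.2 CPM, so that the cKO libraries surrounded the WT libraries. Means were 37.3 ± 2.43 CPM in WT and 34.7 ± 7.26 in cKO, a log2 fold change of -0.10 (SE 0.14). The direction of Hes5 rested on cKO replicate 3, since the log2 fold change was 0.005 without it. Hey1 (chromosome 3, 8663359 to 8667038, minus strand), of the related Hey family, gave 77.9, 86.1 and 75.6 CPM in WT and 74.8, 88.1 and 80.6 CPM in cKO, a log2 fold change of 0.02 (SE 0.08). Replicate 2 was the highest library in each genotype, and the value turned negative without WT replicate 3 (-0.02) or cKO replicate 2 (-0.04). The 95% intervals were 0.770 to 1.14 times the WT level for Hes1, 0.738 to 1.17 for Hes5 and 0.888 to 1.16 for Hey1.

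**Figure D2:**
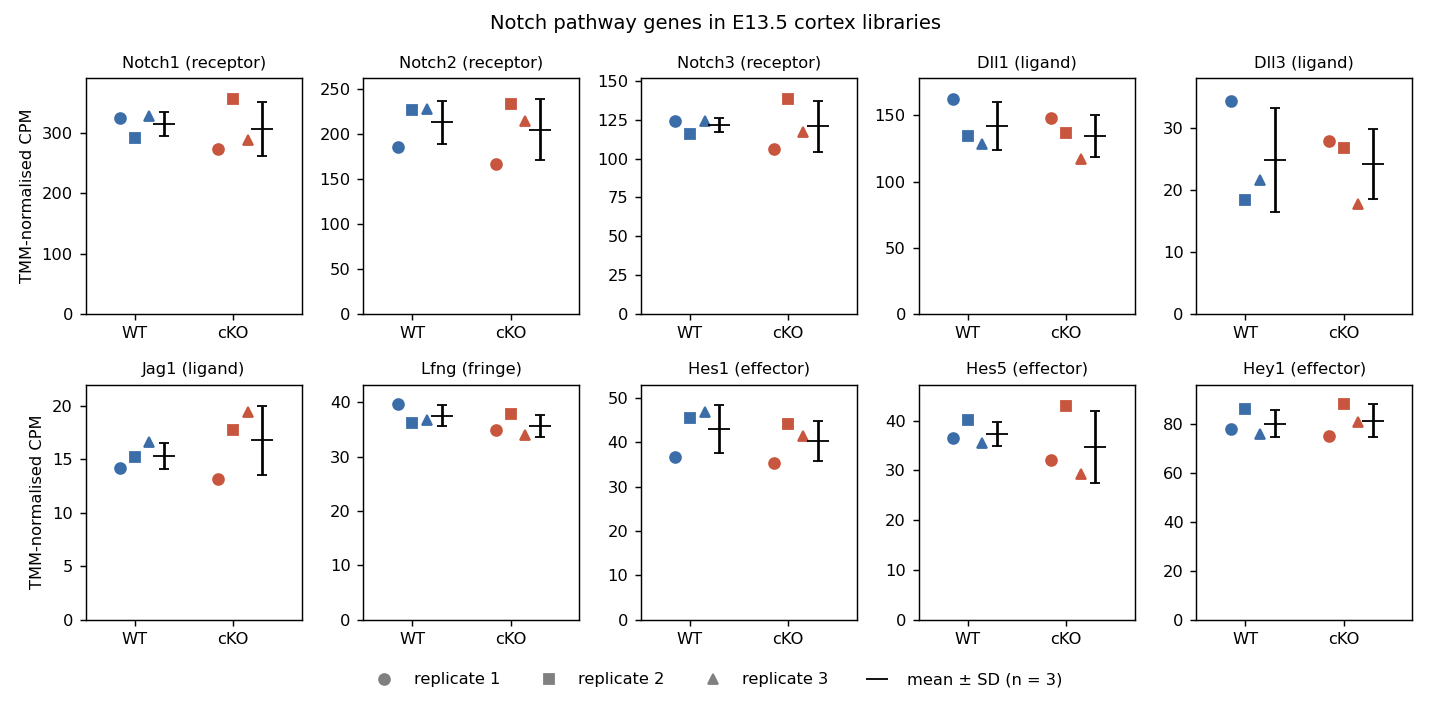
TMM-normalised CPM of each gene in the 3 WT (blue) and 3 cKO (red) libraries, with a symbol for each replicate and the mean ± SD (n = 3) beside the points, on axes that start at 0. WT and cKO values overlap for all 10 genes, and the cKO points of Notch1, Notch2, Notch3, Jag1, Hes5 and Hey1 reach both above and below the WT points.

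Across the 10 genes, whether Ybx1 deletion changed transcript abundance was tested with edgeR's quasi-likelihood test over the whole table. At an adjusted p under 0.05, 0 of 10 members were called, where 0% of all 13340 genes were, and each member had an adjusted p of 0.99995. At an unadjusted p under 0.05, 0 of 10 members were called, against 3.57% of all genes, and the lowest member p was 0.40 (Lfng). DESeq2 and limma-voom also called 0 of 10 at either threshold, where 2.55% and 3.34% of all genes had an unadjusted p under 0.05. The 3 WT and 3 cKO values were free of overlap for 0 of 10 members and for 9.04% of all genes. The log2 fold changes ran from -0.10 (Hes5) to 0.13 (Jag1), and 8 of 10 were negative, where 6566 of 13340 genes were. Their median was -0.05, beside 0.002 over all genes. With 1 library left out, the number of negative members ran from 4 (without cKO replicate 3) to 9 (without cKO replicate 2). The median of the members then ran from -0.12 (without cKO replicate 2) to 0.02 (without cKO replicate 1), so no shared direction is given. By class, the medians were -0.04 for receptors, -0.04 for ligands and -0.10 for effectors, each from 3 genes. For the 9 members other than Dll3 the 95% intervals reached no lower than 0.738 (Hes5) and no higher than 1.39 (Jag1) times the WT level, and the interval of each gene given above is its own limit. With both libraries that stand apart left out (WT replicate 2 by its Ybx1 level, cKO replicate 3 by its markers), the members ran from -0.08 to 0.09 with a median of -0.03. In that fit 0 of 10 had an unadjusted p under 0.05, against 1.84% of all genes.

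**Figure D3:**
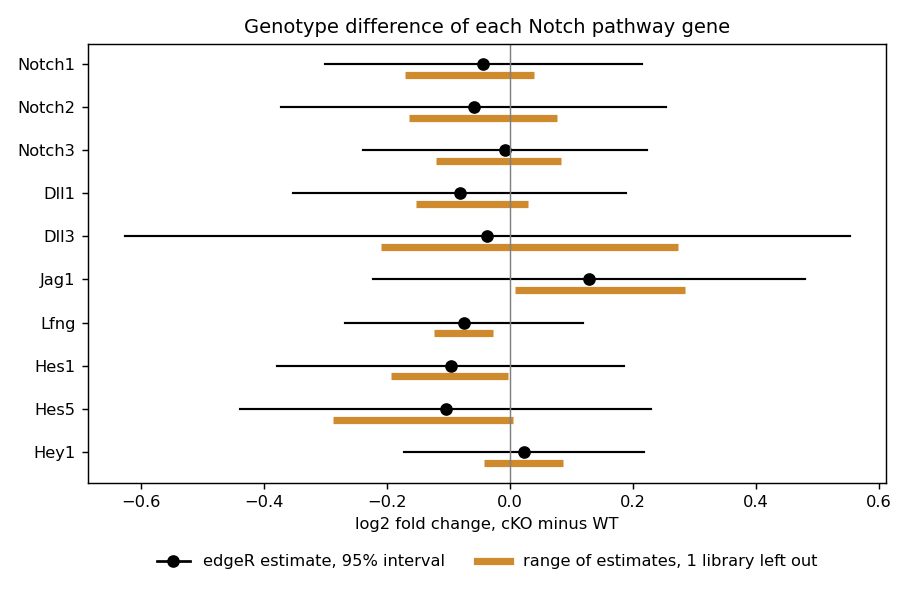
Log2 fold change (cKO minus WT) of each gene from the edgeR fit, with its 95% interval as a black line and the range of estimates when each library was left out in turn as an orange bar. Every interval spans 0, Dll3 has the widest at -0.63 to 0.55, and the bars of Jag1, Lfng and Hes1 alone stay on 1 side of 0.

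Libraries of 1 genotype differed from each other, and the pattern of these differences was compared between classes. For each gene, the deviation of log2(CPM + 1) from its mean over the 6 libraries was averaged within each class. Notch1, Notch2 and Notch3 together lay at -0.22 in cKO replicate 1 and at 0.19 in cKO replicate 2, while the other 4 libraries lay between -0.03 and 0.09. Effectors followed the same order at the extremes, with -0.16 in cKO replicate 1 and 0.16 in cKO replicate 2, and stood at 0.13 in the library labelled WT replicate 2. The 3 ligands together were highest in WT replicate 1 (0.20) and lowest in WT replicate 2 (-0.15) and cKO replicate 3 (-0.12). Dll1 and Dll3 without Jag1 had 0.38 in WT replicate 1 and 0.17 in cKO replicate 1 as the highest and -0.32 in cKO replicate 3 as the lowest. Cell type markers of this tissue were set beside these values. The 8 radial glia markers were lowest in cKO replicate 1 (-0.30) and WT replicate 1 (-0.26) and highest in cKO replicate 2 (0.28). Cortical neuron markers were highest in cKO replicate 1 (0.20) and WT replicate 1 (0.16), and intermediate progenitor markers were highest in WT replicate 1 (0.18) and lowest in cKO replicate 3 (-0.18). Neurog2 belongs both to this last list and to the further pathway genes described later. In these 6 libraries, the averages of receptors and of effectors were thus lowest and highest in the same libraries as radial glia markers. Single effectors did not all do so, since Hes5 was lowest in cKO replicate 3 (-0.28) and Hes1 highest in WT replicate 3 (0.17). In WT replicate 1, where radial glia markers were at -0.26, receptors were at -0.02 and effectors at -0.06. Dll1 and Dll3 had the same highest and lowest library as intermediate progenitor markers, which does not hold for the 3 ligands together. Cortical neuron markers were also lowest in cKO replicate 3 (-0.17). These statements describe 6 libraries that share their normalisation, and they carry no test. Ventral forebrain markers, at -0.56, -0.57 and 0.08 in WT and 0.31, 0.37 and 0.37 in cKO, separated the genotypes where the 4 Notch classes did not.

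**Figure D4:**
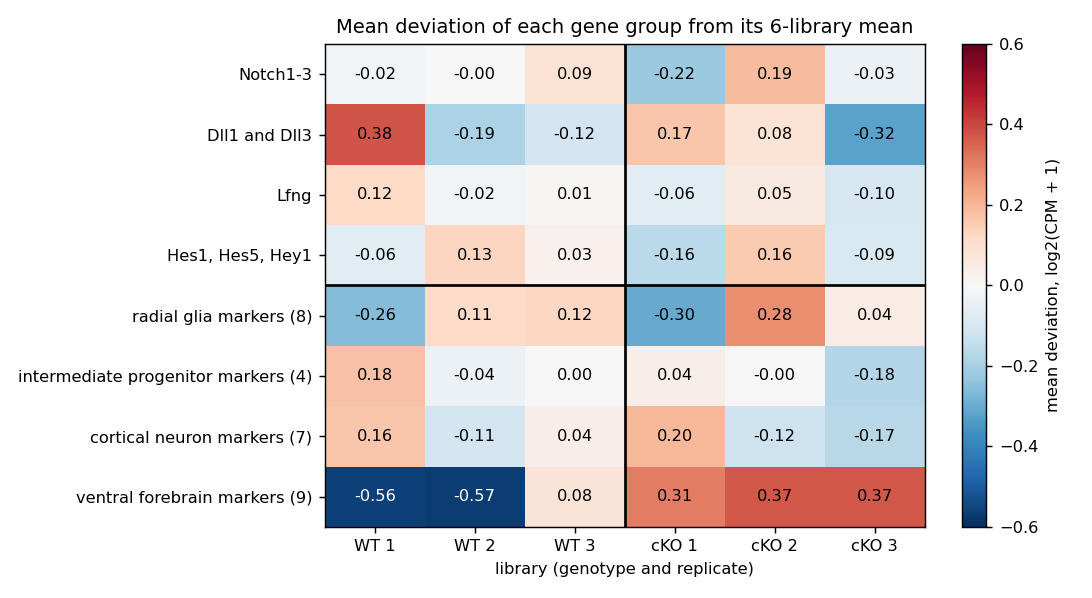
Mean deviation, in log2(CPM + 1), of each gene group from its own mean over the 6 libraries. Columns are WT and cKO replicates 1 to 3. Upper rows hold Notch genes, with Dll1 and Dll3 in place of the ligand class and Jag1 left out. Lower rows hold marker lists, with the number of genes in brackets. Receptors, effectors and radial glia markers are lowest in cKO replicate 1 and highest in cKO replicate 2, and ventral forebrain markers are at 0.31 to 0.37 in cKO against -0.57 to 0.08 in WT.

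The rest of the pathway was read from a list of 58 genes, of which 57 were in the table and 55 were tested (Hes3 and Hes7 had 4 and 18 counts in all). At an unadjusted p under 0.05, 0 of 55 were higher and 1 was lower in cKO, where 1.81% of all genes were lower. At an adjusted p under 0.05 the count was 0 of 55. Their median log2 fold change was -0.02, and 3 of 55 (5.45%) had values free of overlap, beside 9.04% of all genes. The lower gene was Poglut1, which adds glucose to the extracellular repeats of Notch. It gave 86.0, 88.5 and 83.5 CPM in WT and 79.2, 76.9 and 78.2 CPM in cKO. All cKO values lay below all WT values, but by little, with a log2 fold change of -0.14 (SE 0.06), an unadjusted p of 0.048 and an adjusted p of 0.99995 by edgeR. It was not called at the unadjusted threshold by DESeq2 or limma-voom, nor when any 1 of the 6 libraries was left out. The other 2 without overlap were Aph1c (log2 fold change -0.31) and Psenen (0.10), subunits of the gamma-secretase that frees the intracellular domain, with unadjusted edgeR p of 0.143 and 0.234. Both were named after their values were seen, and the counts of Aph1c (at most 49.31 in a library) are not whole and may be shared with its close copy Aph1b.

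Class by class, the most abundant gene was taken by TPM. Among ligands outside the 10, Dner, a neuronal transmembrane protein, had 38.6 ± 7.79 TPM in WT and a log2 fold change of -0.10. Notch4, the receptor of endothelium, was low at 3.29 ± 0.89 TPM (log2 fold change -0.10). The fringe enzyme Mfng stood at 118 ± 19.1 TPM (-0.08), above Lfng in each WT library. Of the ubiquitin ligases that let a sending cell pull on Notch, Mib1 led with 46.8 ± 2.37 TPM (-0.09). Psenen led the cleavage enzymes with 208 ± 5.56 TPM. In the nuclear complex Snw1, a co-activator, had 149 ± 9.84 TPM (-0.02), and among co-repressors Ctbp1 had 332 ± 24.2 TPM (-0.09). Dtx3, of the Deltex family, led the regulators of turnover with 170 ± 35.0 TPM (0.07). Hes6, which counters Hes1, had 173 ± 13.1 TPM (-0.01), and the proneural factor Neurog2 had 409 ± 32.4 TPM (-0.01), the highest level of any gene in either list. For these 10 genes the edgeR test gave no unadjusted p under 0.05.

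The widest positive fold changes belonged to Dlk1 and Jag2, named after their values were seen, and in both the highest library was cKO replicate 3. Dlk1, an imprinted relative of the Delta ligands, gave 5.21, 3.35 and 2.75 CPM in WT and 2.62, 6.02 and 30.7 CPM in cKO, a log2 fold change of 1.80 (SE 0.80) that was 0.20 without cKO replicate 3. Jag2, a second Jagged ligand, gave 15.5, 10.5 and 10.9 CPM in WT and 17.0, 12.2 and 21.4 CPM in cKO, a log2 fold change of 0.45 (SE 0.23) that was 0.25 without it. The epidermal and connective tissue markers were highest in that library too, and their part was not tested. In the other libraries the connective tissue markers summed to 11.4, 8.18 and 9.13 CPM in WT replicates 1 to 3. They summed to 8.86 CPM in cKO replicate 1 and 16.7 in cKO replicate 2.

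**Figure D5:**
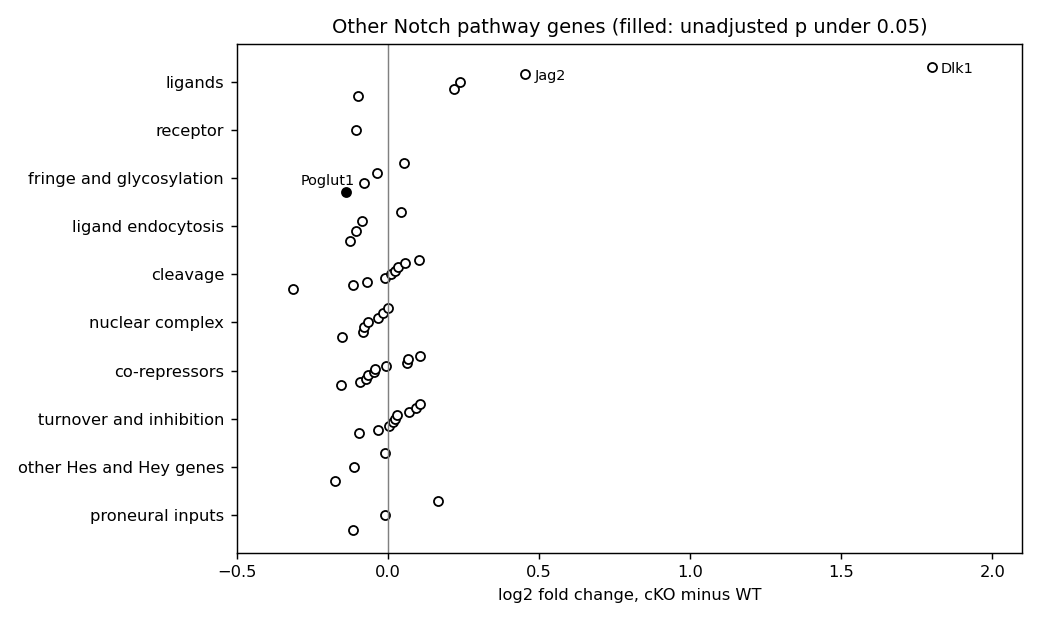
Log2 fold change (cKO minus WT) of the 55 further pathway genes tested, 1 point per gene, in rows by role, with filled points for an unadjusted edgeR p under 0.05. Poglut1 at -0.14 is the single filled point, and Dlk1 at 1.80 and Jag2 at 0.45 lie farthest to the right.

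Genes whose profile over the 6 libraries was nearest to a member were ranked by the root mean square difference of deviations in log2(CPM + 1), among 9879 genes with a mean of at least 10 CPM. The nearest to Hes1 were Azin1, Mtap and Gm715, at distances of 0.020, 0.020 and 0.022 on the log2 scale. Azin1, a regulator of polyamine synthesis, gave 190, 230 and 234 CPM in WT and 183, 220 and 213 CPM in cKO, so that replicate 1 was the lowest library of each genotype as it was for Hes1. The nearest to Dll1 were Igf2bp1, Ankrd11 and Klc4, at 0.020, 0.031 and 0.035. Igf2bp1, an RNA-binding protein of fetal tissue, gave 176, 150 and 142 CPM in WT and 166, 153 and 133 CPM in cKO, with replicate 1 highest in each genotype. Hes5 had no neighbour as close, its nearest being Xylb, Gm42226 and Ccsap at 0.072, 0.074 and 0.077. All these genes were picked for their likeness over the 6 libraries, so the shared patterns follow from the choice. They are not evidence of shared regulation, and how close the nearest of 9879 genes would lie by chance was not tested.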

How the data were processed

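Cortical RNA at E13.5, in 3 WT and 3 cKO libraries, was extracted with Trizol, made into mRNA libraries and sequenced by the authors on the DNBSEQ platform. The submitters' processing notes name HISAT2 2.2.1, Bowtie2 2.4.5, RSEM 1.3.1 and the build GRCm38 (mm10), with no role or order. The annotation is not given in the sources used here. The authors deposited estimated counts per gene, unscaled for depth, of which 10.9% were not whole. TPM values were deposited by the authors after scaling for transcript length and to a common sum. The 6 FPKM columns and 6 columns of group averages were not used.

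Counts were rounded and filtered with filterByExpr (minimum count 10, minimum total 15). TMM factors lay between 0.987 and 1.03. Genotype was tested with edgeR's quasi-likelihood test (edgeR 4.0.16, R 4.3.3), with Benjamini-Hochberg adjustment over 13340 genes. The SE is the log2 fold change divided by the square root of F, and the 95% interval uses 7.92 degrees of freedom. On simulated data the test found planted changes, with more false calls than the adjusted threshold allows for. An exact permutation test of 3 against 3 libraries cannot go below 0.1 and was not used. Intervals do not cover errors of read assignment. At most 1.44% of tested genes had equal counts in a pair of libraries.

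The members and lists were chosen with earlier results of these data known. Named genes were Ybx1, the 10 members, further pathway genes with an unadjusted p under 0.05, the most abundant of each role by TPM, and the 3 nearest profiles to Hes5, Hes1 and Dll1. Aph1c, Dlk1, Jag2, Dtx1 and Hey2 fall outside this rule and were named after their values were seen. Positions are from RefSeq genes of GRCm38.p6, where 17297 of 17348 identifiers were found. Alternatives used DESeq2 1.42.0, limma-voom and limma on log2(TPM + 1) (limma 3.58.1), another normalisation (upper-quartile or RLE), another filter (a minimum of 10 counts per library, or none), the replicate number as a block, each library left out, and WT replicate 2 and cKO replicate 3 left out together.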

Additional observations from a re-analysis of the deposited data

How the results depend on the processing

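Under 15 alternatives, 0 of 150 member values passed an adjusted p of 0.05, the lowest adjusted p being 0.626 (Jag1 without cKO replicate 1). At an unadjusted p under 0.05 the count of members was 0 higher and 0 lower, and it was from 0 to 1 in each direction when 1 library was left out: Jag1 was at 0.28 without cKO replicate 1 and Hes5 at -0.29 without cKO replicate 2. Of all genes, 7.81% had such a p without cKO replicate 1 and 4.27% without cKO replicate 2. Jag1, Lfng and Hes1 kept their direction in all 15 alternatives, and the other 7 members did not, so no direction is given for them. With 1 library left out, log2 fold changes ranged from -0.17 to 0.039 for Notch1, -0.16 to 0.076 for Notch2, -0.12 to 0.084 for Notch3, -0.15 to 0.030 for Dll1, -0.21 to 0.27 for Dll3, -0.29 to 0.0053 for Hes5 and -0.041 to 0.086 for Hey1. Notch3 was at 0.0056 with upper-quartile factors, and Hes5 at 0.061 without WT replicate 2 and cKO replicate 3.

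In the further list of 55 genes, 0 were higher and 1 was lower at an unadjusted p under 0.05. The higher count was 1 with no filter and from 0 to 2 with 1 library left out. Of all genes, 3.75% had an unadjusted p under 0.05 in either direction with no filter. With 1 library left out this share ran from 1.77% (without WT replicate 3) to 7.81% (without cKO replicate 1). The lower count was 0 with upper-quartile factors, at least 10 counts in every library, DESeq2, limma-voom and log2(TPM + 1). With 1 library left out it was from 0 to 1, and the gene was never Poglut1. It was Dtx1 without cKO replicate 1 and Hey2 without cKO replicate 3, and again Hey2 without WT replicate 2 and cKO replicate 3. Hey2 gave 9.55, 8.49 and 8.38 CPM in WT and 6.61, 6.21 and 10.6 CPM in cKO, with cKO replicate 3 highest. Over all genes, adjusted calls (0 higher, 0 lower) were 2 higher and 2 lower with DESeq2 and 1 and 1 without WT replicate 2 and cKO replicate 3, and from 0 to 1 each with 1 library left out. Unadjusted calls (234 higher, 242 lower) were 390 higher with no filter, 148 higher with DESeq2, and 105 higher and 141 lower without those 2 libraries. They were from 121 to 571 higher and from 118 to 482 lower with 1 library left out. Ybx1 passed at -2.996 with DESeq2 and -3.49 without those 2 libraries and -3.28 without WT replicate 2 alone, and ranged from -3.28 to -2.75 with 1 library left out. The cause was not tested.

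Replicate numbers were not used as pairs in the main fit, which was a plain 2-group fit, since the methods of the study name no test for these libraries. Across genes, deviations from the genotype means correlated at 0.49, 0.33 and 0.004 for replicates 1, 2 and 3. Replicates 1 and 2 thus shared part of their deviations, as did WT replicate 3 and cKO replicate 2 (0.30). The main p-values and intervals do not take this into account. With a replicate block, adjusted calls over all genes numbered 1 higher and 1 lower, unadjusted calls 476 higher and 614 lower, and Ybx1 passed at -2.95 (adjusted p = 0.038 by edgeR). No member was called, and of the 55 further genes 1 was higher and 2 were lower unadjusted. At 3 libraries per genotype, modest changes of any member, within its own 95% interval, are beyond what the data can show. Counts were lowest for Jag1 (211 to 322) and Dll3 (292 to 545), but the SE did not follow counts alone. It was 0.14 for Notch2, at 2676 to 3719 counts in a library, and 0.08 for Lfng, at 560 to 633.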
